A study of Homo sapiens with 76 samples.

Results

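Antimycin A is an antibiotic of Streptomyces that blocks complex III of the mitochondrial respiratory chain. The response of TK6 cells to 100 µM antimycin A after 4 h was described here over 61 genes. These were the genes of a DNA damage biomarker panel that the study kept for its analyses. The data were 2 antimycin A samples and 2 samples of the ethanol vehicle, out of 76 samples in the series. The samples were taken by their agent label. TK6 is a lymphoblastoid line of human B cells in which p53 is intact. The whole series held 29 treatments and 9 vehicle conditions with 2 replicates each, and mRNA was measured by TaqMan RT-qPCR.

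The 2 antimycin A samples came from growing TK6 cells given 100 µM antimycin A dissolved in ethanol (EtOH). The study places the agent among those that do not induce DNA damage (non-DDI). The EtOH vehicle samples came from TK6 cells that received the same volume of solvent without the agent. All 4 samples were harvested at 4 h. The study fixed the concentration with ATF3, GADD45A and CDKN1A mRNA in view, so the levels of GADD45A and CDKN1A were not independent of the choice of dose. The model is 1 cell line, 1 concentration and 1 time.

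Blocking complex III stops electron flow to oxygen, lowers mitochondrial ATP synthesis and can raise superoxide. Cells meet a fall in ATP through AMPK, the kinase that senses AMP, and through the integrated stress response, in which phosphorylation of eIF2α slows translation and favours ATF4 and its targets. The panel was selected instead to tell DNA damaging agents from others, and many of its genes, such as CDKN1A, MDM2 and GADD45A, are induced by p53, the transcription factor that DNA damage stabilises.

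Relative level is given as −ΔCq, the mean Cq of the reference genes HPRT1 and GUSB minus the Cq of the gene, where Cq is the PCR cycle at which the signal crosses the threshold. A step of 1 is about a doubling of mRNA, and more negative values are lower levels. HPRT1 had a Cq of 22.74 and 22.89 in the antimycin A samples, against 22.75 and 22.64 in the EtOH vehicle. GUSB had a Cq of 24.10 and 23.81 in the antimycin A samples, against 23.89 and 23.96 in the EtOH vehicle. Both reference genes thus crossed the threshold at nearly the same cycle in all 4 samples. The 61 panel genes lay between 20.7 and 35.5 cycles in these samples (median 26.06), and none of the 61 was missing. All samples received the same mass of RNA and were scaled to the reference genes, so fewer cells of a kind and less mRNA per cell cannot be told apart.

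The EtOH vehicle carried a doubt that touches every comparison with it. For 50 of the 61 genes its deposited Cq was equal to that of the acetonitrile vehicle in both replicates, to the last decimal, whereas HPRT1, GUSB and the other 11 genes differed. The mean reference Cq was 23.32 and 23.30 in the EtOH vehicle, and 23.96 and 23.525 in the acetonitrile vehicle. Which of the vehicles those 50 values were measured in was not tested. Results are therefore also given for the 11 genes that were not shared, against the mean of 7 other vehicles, and directly against tunicamycin and colchicine, a pair of agents in the same solvent whose contrasts use no vehicle sample.

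A total of 15 of 61 genes (24.6%) differed between antimycin A and the EtOH vehicle at an adjusted p under 0.05 by limma, 9 of them higher (14.8%) and 6 lower (9.84%). The genes that rose were PTGER4, ID2, GADD45A, B3GNT2, ITPR1, RAPGEF2, TOPORS, SMAD5 and COIL, by 1.41 to 3.69 fold. HIST1H2BG, TNFRSF17, DAAM1, PHLDA3, ACTA2 and RPS27L fell. The median log2 fold change over all genes was −0.085. In 43 genes (70.5%) the antimycin A and EtOH samples did not overlap, and 24 genes had an unadjusted p under 0.05. An exact permutation test of 2 against 2 samples cannot go below p = 0.333, so the p-values rest on the spread that limma estimated over all 38 conditions.

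**Figure D1:**
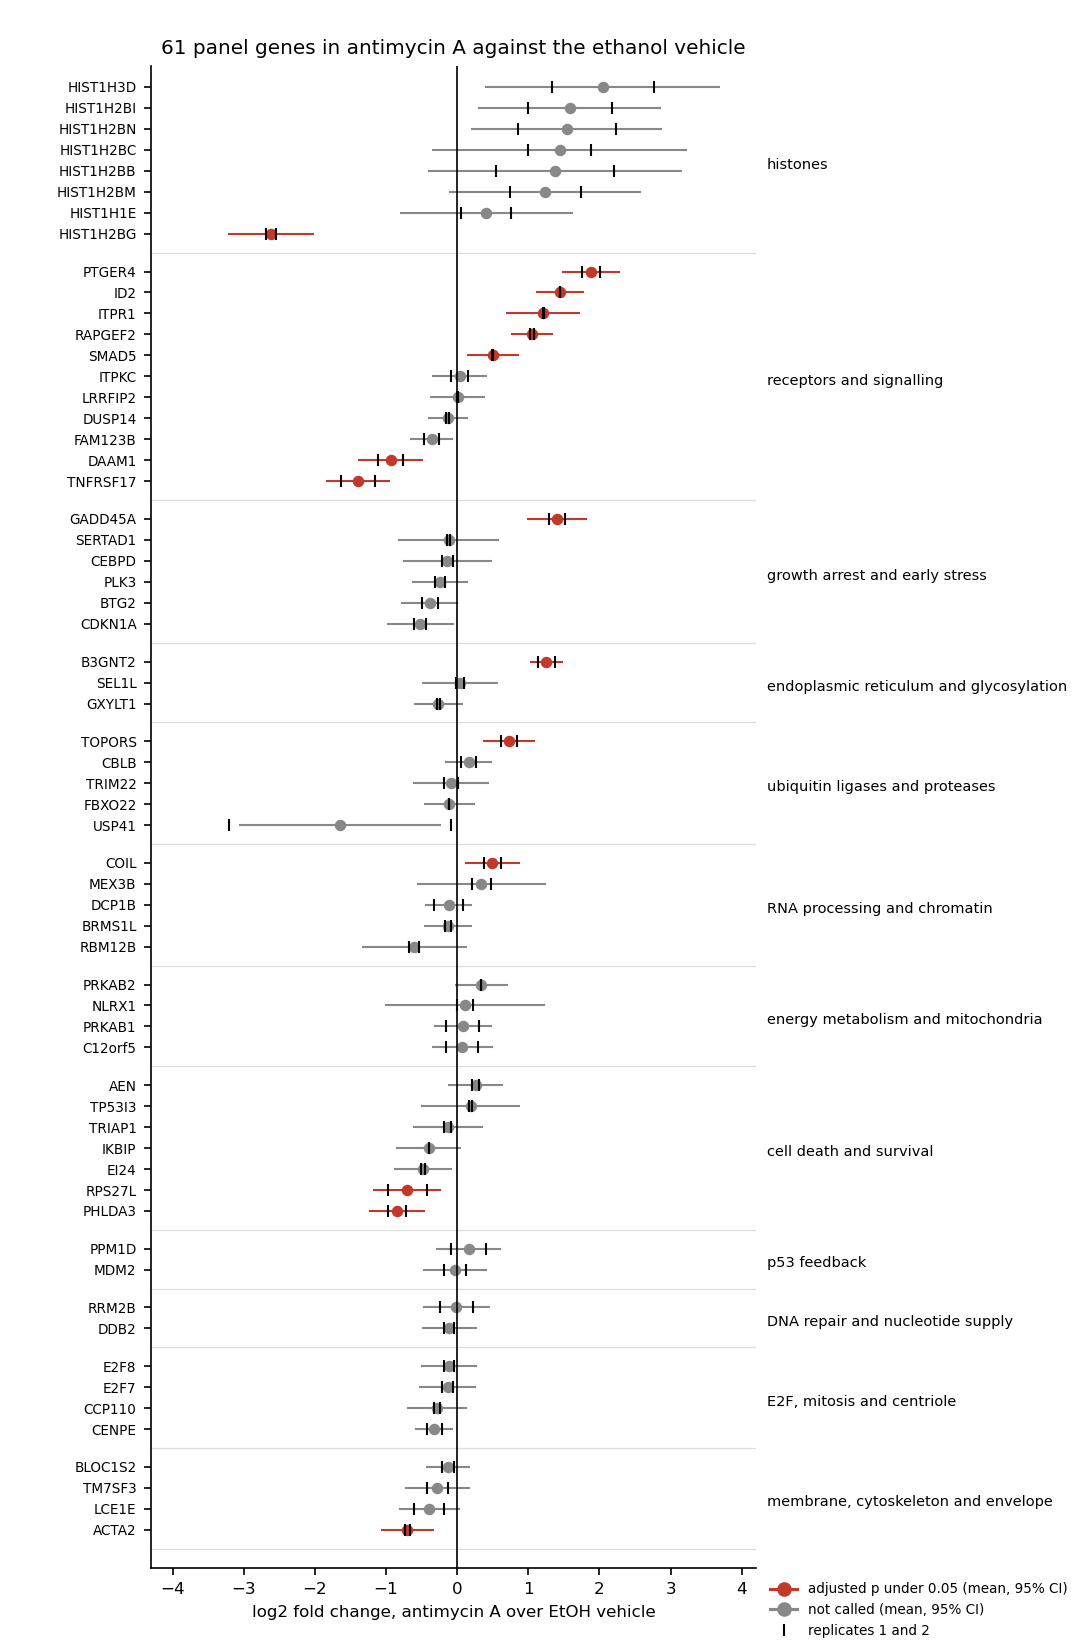
Log2 fold change of each of the 61 genes in antimycin A over the EtOH vehicle (x axis), with genes on the y axis grouped by role. Points are means with 95% confidence intervals, red where called by limma, and ticks are replicates 1 and 2. The histone genes other than HIST1H2BG lay to the right with wide intervals, and HIST1H2BG lay furthest to the left at −2.62.

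The receptor and signalling list held 11 genes. Of these, 5 rose (PTGER4, ID2, ITPR1, RAPGEF2 and SMAD5) and 2 fell (TNFRSF17 and DAAM1), against 14.8% and 9.84% of all 61 genes. The list had a median of 0.035 against −0.085 over all genes. PTGER4, which encodes the prostaglandin E2 receptor EP4, had a −ΔCq of −4.62 and −4.86 in antimycin A, against −6.63 and −6.62 in the EtOH vehicle. Both treated samples were well above both vehicle samples. The log2 fold change was 1.89 (95% CI 1.49 to 2.28, adjusted p = 1.1e-10), or 3.69 fold. EtOH was itself low for this gene, 1.09 below the mean of 7 other vehicles, and against those vehicles the rise was 0.80 (adjusted p = 3e-05). PTGER4 also rose against the same EtOH samples in tunicamycin, by 1.46 (adjusted p = 3.2e-08), and in colchicine, by 1.32 (adjusted p = 1.8e-06). Directly against tunicamycin the difference of antimycin A was 0.43 and was not called (adjusted p = 0.106).

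ID2, an inhibitor of basic helix-loop-helix transcription factors, stood at 1.41 and 1.54 in antimycin A, against −0.04 and 0.10 in the EtOH vehicle. The samples of each condition lay close together and the conditions were far apart. The log2 fold change was 1.45 (95% CI 1.13 to 1.76, adjusted p = 3.9e-10). The antimycin A level of ID2 was the highest of all 38 conditions at 1.48, with apicidin next at 1.46, and the gap between them was smaller than the standard error of such a difference (0.16).

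ITPR1 encodes an IP3 receptor, the channel that releases calcium from the endoplasmic reticulum. Its levels were −3.69 and −3.80 in antimycin A, against −4.89 and −5.02 in the EtOH vehicle, again without overlap. It rose by 1.21 (95% CI 0.70 to 1.72, adjusted p = 0.00016), and against the 7 other vehicles by 0.81 (adjusted p = 0.00077). RAPGEF2, an exchange factor for the small GTPase Rap1, measured −3.39 and −3.29 in antimycin A, against −4.47 and −4.32 in the EtOH vehicle. The treated samples were higher in both replicates, by 1.06 on average (95% CI 0.77 to 1.34, adjusted p = 3.4e-08). EtOH lay 0.85 below the 7 other vehicles for RAPGEF2, and against those the difference was 0.20 and was not called (adjusted p = 0.101).

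SMAD5, a signal transducer of bone morphogenetic protein receptors, had −2.15 and −2.19 in antimycin A, against −2.64 and −2.70 in the EtOH vehicle. The separation was small but held in both replicates, with a log2 fold change of 0.50 (95% CI 0.15 to 0.85, adjusted p = 0.026). The call was lost when any 1 of the 4 samples was left out (adjusted p = 0.068 to 0.139).

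TNFRSF17 fell by 1.39 on the log2 scale. It encodes BCMA, a receptor of late B lineage cells, and it was the sole lineage gene on the panel by which the B cell label could be checked. It was detected in every sample, at a Cq of 28.35 and 28.88 in antimycin A, against 27.10 and 27.20 in the EtOH vehicle. As relative levels these were −4.93 and −5.53 in antimycin A, against −3.78 and −3.90 in the EtOH vehicle. The treated samples were lower but differed from each other by more than the vehicle samples did (95% CI of the change −1.83 to −0.95, adjusted p = 9e-07). EtOH lay 0.83 above the 7 other vehicles for TNFRSF17, and against those vehicles the change was −0.56 (adjusted p = 0.0047).

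DAAM1, a formin that organises actin downstream of Wnt, had −4.26 and −3.97 in antimycin A, against −3.15 and −3.21 in the EtOH vehicle. Both treated samples were below both vehicle samples, and the log2 fold change was −0.94 (95% CI −1.38 to −0.49, adjusted p = 0.00072). The remaining genes of this list were not called, namely ITPKC, an IP3 kinase, at 0.035, LRRFIP2 at 0.005, the phosphatase DUSP14 at −0.13 and FAM123B (AMER1), a Wnt pathway scaffold, at −0.36. With the replicate block FAM123B was called (adjusted p = 0.027).

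**Figure D2:**
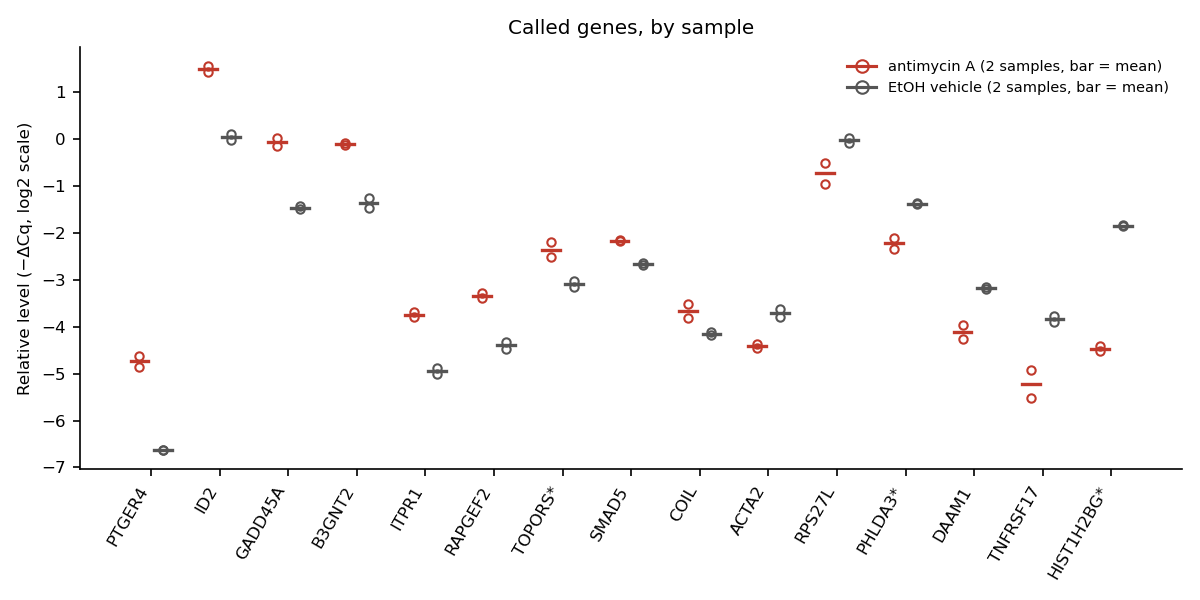
Relative level (−ΔCq, log2 scale, y axis) of the 15 called genes (x axis) in each antimycin A sample (red) and each EtOH vehicle sample (grey), with a bar at each mean. An asterisk marks the 3 genes whose EtOH values were not shared with the acetonitrile vehicle, and no gene shows an overlap between the conditions.

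Of the best known growth arrest genes on the panel, GADD45A rose and CDKN1A was not called. GADD45A is induced both through p53 and, under nutrient or endoplasmic reticulum stress, through ATF4. Its levels were −0.15 and 0.02 in antimycin A, against −1.44 and −1.50 in the EtOH vehicle. Every treated sample was more than 1 unit above the vehicle samples, with a log2 fold change of 1.41 (95% CI 0.997 to 1.81, adjusted p = 2e-07), or 2.65 fold.

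CDKN1A, the gene of p21, which holds back cyclin-dependent kinases, had −1.89 and −1.70 in antimycin A, against −1.29 and −1.26 in the EtOH vehicle. Both treated samples were thus below both vehicle samples. The log2 difference was −0.52 (95% CI −0.98 to −0.06), and CDKN1A was not called (adjusted p = 0.071). With the replicate number as a block the adjusted p of CDKN1A was 0.038, and against the 7 other vehicles the difference was −0.58 (adjusted p = 0.0052). The antimycin A level of CDKN1A was the lowest of 38 conditions at −1.80, next to K2CrO4 at −1.65, a gap smaller than the standard error of such a difference (0.23).

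The other growth arrest and early stress genes were not called. They were BTG2, an antiproliferative gene, at −0.39, the polo-like kinase PLK3 at −0.24, the transcription factor CEBPD at −0.14 and SERTAD1 at −0.12. In this list of 6 genes, 1 rose and none fell, against 14.8% and 9.84% of all 61 genes. The list had a median of −0.19 against −0.085 over all genes.

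Of 23 p53 targets, 1 rose (GADD45A), 2 fell (PHLDA3 and RPS27L) and 20 were not called. Over all 61 genes 14.8% rose and 9.84% fell. The p53 targets had a median of −0.12 against −0.085 over all genes. The feedback genes of p53 stood near 0, with MDM2, the ubiquitin ligase of p53, at −0.03 (95% CI −0.46 to 0.40) and PPM1D, a phosphatase of the damage response, at 0.16 (95% CI −0.28 to 0.60). Neither had its EtOH value shared with the acetonitrile vehicle. DDB2, a sensor of ultraviolet damage, was at −0.11 and RRM2B, a subunit of ribonucleotide reductase, at −0.01. With the replicate block 4 p53 targets fell and 1 rose, against 10 that fell and 15 that rose over all 61 genes. Against the 7 other vehicles 6 fell and 1 rose, against 14 that fell and 16 that rose over all 61 genes.

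PHLDA3, a p53 target that represses Akt, had −2.35 and −2.11 in antimycin A, against −1.38 and −1.39 in the EtOH vehicle. The vehicle samples were almost identical and both treated samples lay below them. The log2 fold change was −0.85 (95% CI −1.22 to −0.47, adjusted p = 0.0003), and its EtOH values were not shared with acetonitrile. RPS27L, a ribosomal protein paralogue induced by p53, had −0.52 and −0.96 in antimycin A, against −0.09 and 0.01 in the EtOH vehicle. The treated samples were lower and further from each other than the vehicle samples, with a change of −0.70 (95% CI −1.16 to −0.24, adjusted p = 0.019). The RPS27L call was lost without antimycin A replicate 2 (adjusted p = 0.207), without EtOH replicate 1 (0.054) and without EtOH replicate 2 (0.12). Its antimycin A level of −0.74 was the lowest of 38 conditions, with CdCl2 next at −0.59, a gap smaller than the standard error of such a difference (0.23).

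The cell death and survival list of 7 genes held 2 that fell, both just given, and none that rose, against 9.84% and 14.8% of all 61 genes. The list had a median of −0.40. Its other members were not called. They were the nuclease AEN at 0.26, TP53I3 at 0.19, TRIAP1 at −0.13, IKBIP at −0.40 and EI24, an autophagy protein of the endoplasmic reticulum, at −0.48 (adjusted p = 0.056). With the replicate block EI24 was called (adjusted p = 0.0078).

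None of the 4 genes of energy metabolism and mitochondria was called, against 24.6% of all 61 genes. PRKAB2, a β subunit of AMPK, had −4.84 and −4.79 in antimycin A, against −5.18 and −5.13 in the EtOH vehicle. Its samples did not overlap, but the difference of 0.34 (95% CI −0.02 to 0.70) did not pass the threshold (adjusted p = 0.151). Against the 7 other vehicles PRKAB2 rose by 0.38 (adjusted p = 0.016).

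PRKAB1, the other β subunit, had −3.26 and −2.81 in antimycin A, against −3.11 and −3.12 in the EtOH vehicle. C12orf5 (TIGAR), a p53 target that restrains glycolysis, had −2.42 and −2.61 in antimycin A, against −2.71 and −2.46 in the EtOH vehicle. NLRX1, a mitochondrial member of the NOD-like receptor family, had −3.05 and −2.91 in antimycin A, against −3.27 and −2.91 in the EtOH vehicle. The conditions overlapped in all 3 of these genes. The differences were 0.08 (95% CI −0.31 to 0.47, adjusted p = 0.798) for PRKAB1, 0.07 (−0.34 to 0.48, adjusted p = 0.823) for C12orf5 and 0.11 (−0.999 to 1.22, adjusted p = 0.909) for NLRX1. The 4 energy genes had a median of 0.095 against −0.085 over all genes.

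Replication-dependent histone genes supply the core and linker histones during S phase, when DNA is copied. Of 8 on the panel, HIST1H2BG fell and the other 7 had positive differences that were not called, with a median of 1.44 over those 7 against −0.085 over all genes. The H2B genes encode nearly the same protein and their mRNAs are very alike, so how far each assay reads its own copy was not tested. Their promoters are known for an octamer element, ATTTGCAT, which binds the factor Oct-1. It was searched for on both strands in the 300 bases from 250 before to 50 after each gene start (RefSeq, GRCh38.p14), where it was found in 5 of 6 H2B genes in 2 of 45 other panel genes with a promoter sequence (HIST1H3D and FAM123B) and in 1.77% of all 35116 promoters. The promoters of HIST1H2BG, which fell, of HIST1H2BI, whose difference was positive and which holds the element at almost the same distance, and of HIST1H2BN, positive as well but without it, are printed to set these genes side by side, with the octamer in capitals. They lie on the minus strand of chr6:26216639-26216938, the plus strand of chr6:26272681-26272980 and the plus strand of chr6:27838319-27838618.
HIST1H2BG: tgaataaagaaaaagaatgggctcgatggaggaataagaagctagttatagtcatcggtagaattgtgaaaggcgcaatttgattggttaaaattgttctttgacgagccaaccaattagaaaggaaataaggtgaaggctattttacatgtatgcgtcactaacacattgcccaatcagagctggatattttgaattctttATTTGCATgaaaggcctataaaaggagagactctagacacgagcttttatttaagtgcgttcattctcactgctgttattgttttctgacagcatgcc
HIST1H2BI: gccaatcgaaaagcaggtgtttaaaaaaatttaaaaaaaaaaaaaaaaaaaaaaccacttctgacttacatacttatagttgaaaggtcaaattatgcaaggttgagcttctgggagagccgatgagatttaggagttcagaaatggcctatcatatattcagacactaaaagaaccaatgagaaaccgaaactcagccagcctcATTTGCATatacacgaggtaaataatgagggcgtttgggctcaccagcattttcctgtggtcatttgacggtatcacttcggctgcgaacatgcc
HIST1H2BN: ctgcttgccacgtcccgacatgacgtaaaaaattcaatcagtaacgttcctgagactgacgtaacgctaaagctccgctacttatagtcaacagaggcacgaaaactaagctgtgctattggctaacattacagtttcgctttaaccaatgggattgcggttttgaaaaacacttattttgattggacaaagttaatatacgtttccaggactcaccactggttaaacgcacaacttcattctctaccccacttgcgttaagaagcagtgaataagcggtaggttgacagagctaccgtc

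In the promoters printed above the octamer began 48 bases before the start of HIST1H2BG and 45 bases before that of HIST1H2BI. It also stood 48 bases before the start of HIST1H2BM, 120 before that of HIST1H2BB and 123 before that of HIST1H2BC. The element was thus present in the H2B gene that fell and in 4 of the other 5.

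HIST1H2BG had −4.41 and −4.53 in antimycin A, against −1.87 and −1.84 in the EtOH vehicle. Each condition was tight and they were more than 2 units apart. The change was −2.62 (95% CI −3.20 to −2.03, adjusted p = 5.4e-10), which put antimycin A at 0.163 of the vehicle level, and the EtOH values of this gene were not shared with acetonitrile. EtOH was 1.07 above the 7 other vehicles, and against those HIST1H2BG changed by −1.54 (adjusted p = 2.6e-07).

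HIST1H3D had 2.72 and 1.16 in antimycin A, against −0.04 and −0.17 in the EtOH vehicle. HIST1H2BI had 1.20 and 0.01 in antimycin A, against −0.97 and −0.99 in the EtOH vehicle, and HIST1H2BN had 0.05 and −1.33 against −2.18 in both vehicle samples. Antimycin A was higher in both replicates of these genes, and replicate 1 was far above replicate 2. The differences were 2.05 (95% CI 0.40 to 3.69, adjusted p = 0.051) for HIST1H3D, 1.59 (0.31 to 2.86, adjusted p = 0.051) for HIST1H2BI and 1.54 (0.21 to 2.87, adjusted p = 0.067) for HIST1H2BN.

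HIST1H2BC was at 1.44, HIST1H2BB at 1.38, HIST1H2BM at 1.24 and the linker histone HIST1H1E at 0.41. For all 8 histone genes antimycin A replicate 1 was above replicate 2, and the median SD of the 7 genes other than HIST1H2BG was 0.976, against 0.134 over all genes. This order was not particular to antimycin A, as replicate 1 was also above replicate 2 for all 8 in tunicamycin and in colchicine. The EtOH replicates lay closer together than those of antimycin A, from equal values in HIST1H2BN to −1.72 and −2.38 in HIST1H2BC. In HIST1H2BG EtOH replicate 1 was the lower, and the EtOH values of the other 7 were shared with acetonitrile. HIST1H3D stood at 1.28 and −0.305 in tunicamycin, and at −0.71 and −1.005 in colchicine. With the replicate number as a block, 6 of the 7 rose (adjusted p = 0.00021 to 0.0142), HIST1H1E being the exception, and against the 7 other vehicles all 7 rose. Calls were also more common over all genes in these settings, where the block added 10 and the 7 other vehicles added 16. The counts over all genes that rose and fell in both settings are given with the p53 targets above. Without antimycin A replicate 2, HIST1H3D, HIST1H2BI and HIST1H2BN passed the threshold (adjusted p = 0.029 to 0.031), and without replicate 1 none of the 7 did. Antimycin A held the highest level of 38 conditions in 5 histone genes, HIST1H3D, HIST1H2BI, HIST1H2BN, HIST1H2BC and HIST1H2BM. Tunicamycin came next in the last 4 of these. The gap was smaller than the standard error of such a difference for HIST1H2BC (0.39 against 0.88) and HIST1H2BM (0.55 against 0.66). Directly against tunicamycin none of the 5 genes was called by limma (adjusted p = 0.184 to 0.684). The EtOH vehicle itself ranked 6 to 9 from the highest of 38 conditions in these genes.

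**Figure D3:**
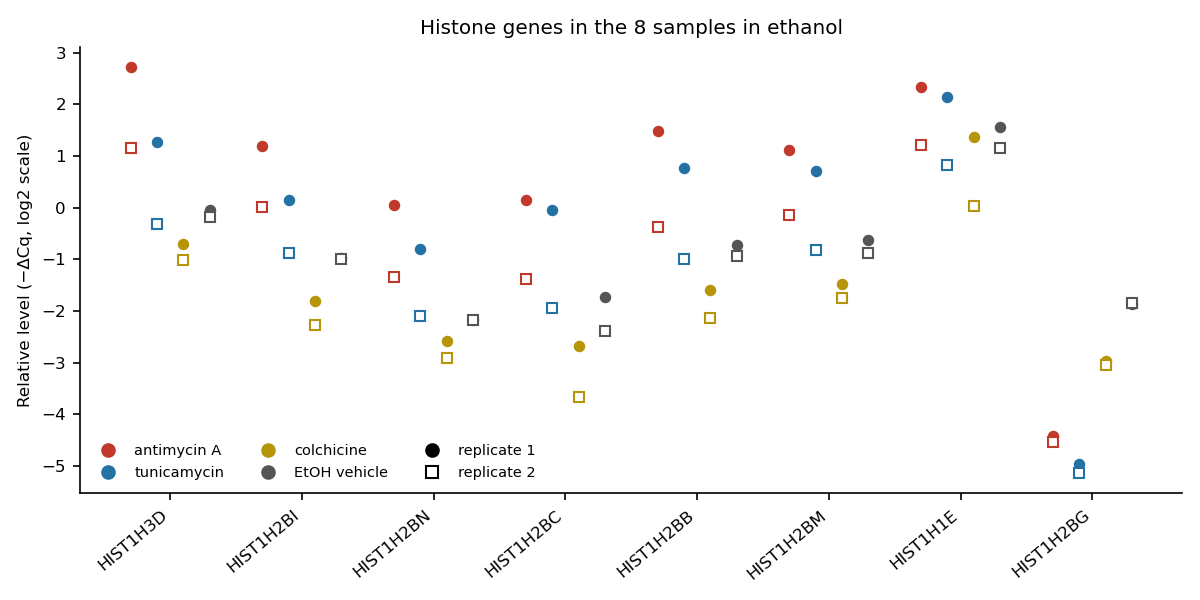
Relative level (−ΔCq, log2 scale, y axis) of the 8 histone genes (x axis) in the 8 samples in ethanol, with replicate 1 filled and replicate 2 open. Replicate 1 is above replicate 2 in each gene in antimycin A, tunicamycin and colchicine. HIST1H2BG is lower in these agents than in the EtOH vehicle.

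B3GNT2 rose in the list of endoplasmic reticulum and glycosylation genes. It encodes a glycosyltransferase that extends polylactosamine chains. Its levels were −0.09 and −0.14 in antimycin A, against −1.47 and −1.27 in the EtOH vehicle, with no overlap and little spread. The log2 fold change was 1.26 (95% CI 1.03 to 1.48, adjusted p = 1.8e-12), and against the 7 other vehicles it was 0.85 (adjusted p = 4.3e-11). SEL1L, part of the machinery that degrades misfolded proteins of the endoplasmic reticulum, had −3.12 and −3.16 in antimycin A, against −3.10 and −3.26 in the EtOH vehicle. The conditions overlapped, and the difference was 0.04 (95% CI −0.48 to 0.56). GXYLT1, a xylosyltransferase, was at −0.27.

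Among 5 ubiquitin ligases and proteases, 1 rose and none fell, against 14.8% and 9.84% of all 61 genes. TOPORS, a ligase for ubiquitin and SUMO that acts on p53, had −2.20 and −2.53 in antimycin A, against −3.04 and −3.15 in the EtOH vehicle. Both treated samples were higher, by 0.73 on average (95% CI 0.38 to 1.08, adjusted p = 0.00077), and TOPORS was the single gene that rose among the 11 without shared vehicle values. Against the 7 other vehicles its rise was 0.39 (adjusted p = 0.013). CBLB was at 0.165, TRIM22 at −0.085 and FBXO22 at −0.11, and none of them was called.

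USP41 had −9.39 and −12.15 in antimycin A, against −9.30 and −8.95 in the EtOH vehicle. Replicate 1 was near the vehicle samples and replicate 2, at a Cq of 35.5, was far below them. The difference of −1.65 was not called (adjusted p = 0.067), and it passed the threshold without replicate 1 (adjusted p = 0.0027) but not without replicate 2 (0.861).

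COIL, the scaffold of Cajal bodies, was the sole call among 5 genes of RNA processing and chromatin, against calls in 24.6% of all 61 genes. Its levels were −3.81 and −3.51 in antimycin A, against −4.19 and −4.12 in the EtOH vehicle. The treated samples were higher in both replicates, by 0.50 (95% CI 0.12 to 0.87, adjusted p = 0.044). The call was lost without antimycin A replicate 2 (adjusted p = 0.294), without EtOH replicate 1 (0.151) and without EtOH replicate 2 (0.12). The RNA-binding proteins MEX3B and RBM12B were at 0.34 and −0.60, the decapping factor DCP1B at −0.12 and BRMS1L at −0.125, and none was called.

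ACTA2, smooth muscle actin, had −4.45 and −4.37 in antimycin A, against −3.79 and −3.63 in the EtOH vehicle. Both treated samples were lower, by −0.70 on the log2 scale (95% CI −1.06 to −0.34, adjusted p = 0.0015). The other genes of membrane, cytoskeleton and envelope were LCE1E at −0.39, TM7SF3 at −0.28 and BLOC1S2 at −0.13, and none was called. ACTA2 was thus 1 call among 4 genes, against calls in 24.6% of all 61 genes. Against the same share, none of the 4 E2F, mitosis and centriole genes was called. They were the kinetochore motor CENPE at −0.325 (adjusted p = 0.051), CCP110 at −0.285, E2F7 at −0.135 and E2F8 at −0.11, with a median of −0.21. With the replicate block CENPE was called (adjusted p = 0.024).

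How far the EtOH vehicle itself set these values was asked by comparing it with the mean of 7 vehicles other than acetonitrile. It differed in 6 of 61 genes (9.84%). HIST1H2BG and TNFRSF17 were higher in EtOH (3.28%), and PTGER4, RAPGEF2, B3GNT2 and ID2 were lower (6.56%). The same EtOH samples enter both comparisons, and the antimycin A values of these 6 genes against the 7 other vehicles were 1.05 for ID2 (adjusted p = 1.6e-09) and those given above for the rest. Against the 7 other vehicles 30 genes were called, 16 higher and 14 lower, and they included 14 of the 15, all but RAPGEF2.

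If the 50 shared values belonged to the acetonitrile vehicle, its own reference genes would apply. The log2 fold changes of these 50 genes would then be lower by 0.43. That setting called 7 genes higher and 24 lower, and SMAD5 and COIL lost their calls (adjusted p = 0.774 and 0.781). CDKN1A was then called at −0.95 (adjusted p = 0.0006), ACTA2 and RPS27L were both at −1.13, and RAPGEF2 was at 0.62, ITPR1 at 0.78 and B3GNT2 at 0.82. Of the 15 called genes, 12 had shared values and 3 did not, TOPORS, HIST1H2BG and PHLDA3. Over the shared genes the median distance of EtOH from the 7 other vehicles was −0.02 with its own reference genes and 0.41 with those of acetonitrile.

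**Figure D4:**
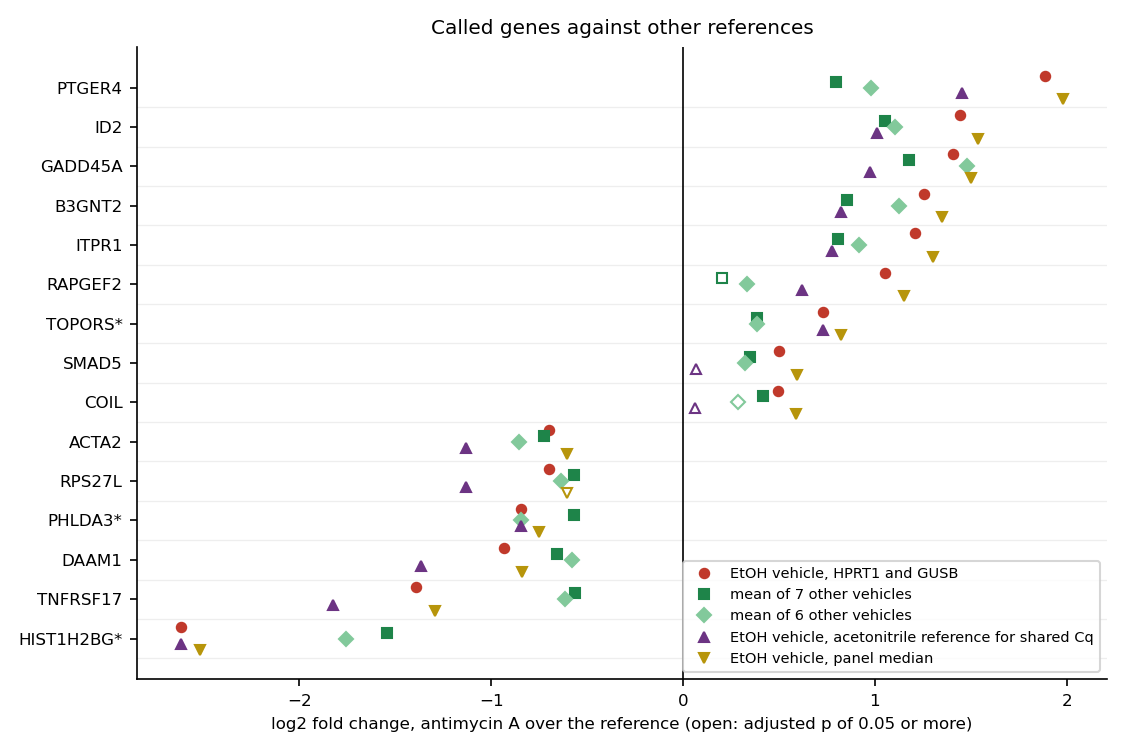
Log2 fold change (x axis) of the 15 called genes (y axis) in antimycin A over the EtOH vehicle, over 7 or 6 other vehicles, over EtOH with the acetonitrile reference genes for shared values, and with the panel median as reference. Filled symbols are adjusted p under 0.05, and RAPGEF2 is at 0.20 against the 7 other vehicles.

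Tunicamycin, which blocks N-glycosylation and so stresses the endoplasmic reticulum, was given at 2.5 µg/ml in ethanol for 4 h. Antimycin A and tunicamycin differed in 15 of 61 genes (24.6%), 3 higher in antimycin A (4.92%) and 12 lower (19.7%), with a median of −0.18. SEL1L and TNFRSF17 were among the genes that were lower in antimycin A. SEL1L had −3.12 and −3.16 in antimycin A, against −0.98 and −1.01 in tunicamycin, a difference of −2.15 (95% CI −2.67 to −1.62, adjusted p = 1.7e-08). TNFRSF17 had −4.93 and −5.53 in antimycin A, against −3.92 and −3.83 in tunicamycin, a difference of −1.36 (adjusted p = 3.5e-06). Antimycin A was lower in both replicates of both genes. Against colchicine the difference of TNFRSF17 was −0.03 (95% CI −0.46 to 0.41, adjusted p = 0.914), and the change of colchicine itself against the EtOH vehicle was −1.36 (adjusted p = 4.8e-06).

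ITPR1 was lower by 0.91 in antimycin A than in tunicamycin, with RAPGEF2 at −0.49, B3GNT2 at −0.31 and ITPKC at −0.50. CENPE (−0.79), DAAM1 (−0.71), CDKN1A (−0.71), CBLB (−0.65), ACTA2 (−0.53) and USP41 (−2.24) were lower as well. TOPORS was higher in antimycin A, at −2.20 and −2.53, against −3.38 and −3.32 in tunicamycin, by 0.98 (95% CI 0.63 to 1.33, adjusted p = 1.6e-05). ID2 was higher by 0.90 (95% CI 0.58 to 1.22, adjusted p = 1.6e-05) and TRIAP1, a small survival protein, by 0.67 (adjusted p = 0.032). For GADD45A no difference was detected between the agents, 0.16 (95% CI −0.25 to 0.57). HIST1H2BG had −4.41 and −4.53 in antimycin A, against −4.96 and −5.13 in tunicamycin, a difference of 0.57 that did not pass (adjusted p = 0.138). None of the other 7 histone genes was called against tunicamycin, with differences of 0.28 to 1.45 and overlap in all of them. Over all 61 genes, 70.5% had no overlap in this contrast. Between same-numbered replicates, antimycin A was higher in both pairs for each of the 7 histone genes. With the replicate block HIST1H3D (adjusted p = 0.013) and HIST1H2BI (0.024) were higher in antimycin A. SEL1L, TNFRSF17, TOPORS, ID2 and CENPE kept their call in all 9 alternative settings, whereas the other 10 lost it in at least 1. With HPRT1 alone as reference 7 genes were called, and with the panel median 12 were higher and 7 lower.

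Colchicine, which blocks the assembly of microtubules, was given at 250 ng/ml in ethanol for 4 h. Antimycin A and colchicine differed in 25 of 61 genes (41%), 14 higher in antimycin A (23%) and 11 lower (18%), with a median of −0.083. Histone genes led those that were higher. HIST1H3D had 2.72 and 1.16 in antimycin A, against −0.71 and −1.01 in colchicine, a difference of 2.80 (95% CI 1.16 to 4.44, adjusted p = 0.0063). Of the 7 histone genes other than HIST1H2BG, 6 were higher in antimycin A, by 2.10 to 2.80. HIST1H1E at 1.06 was not called in the main model (adjusted p = 0.153) but was called with the replicate block (adjusted p = 0.00022). Without antimycin A replicate 1 all 6 lost their call, the genes higher than in colchicine numbering 4 in place of 14, and without colchicine replicate 2 the genes higher numbered 6.

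ID2 (1.41), ITPR1 (1.30), GADD45A (1.16), B3GNT2 (0.93), PTGER4 (0.56), TOPORS (0.52), PRKAB2 (0.45) and RAPGEF2 (0.40) were also higher in antimycin A than in colchicine. GADD45A had −0.15 and 0.02 in antimycin A, against −1.25 and −1.20 in colchicine, without overlap (95% CI of the difference 0.75 to 1.57, adjusted p = 1.1e-05). DAAM1 was lowest in this contrast, at −4.26 and −3.97 in antimycin A, against −2.06 and −2.73 in colchicine, a difference of −1.72 (95% CI −2.17 to −1.28, adjusted p = 2.3e-08). HIST1H2BG (−1.46), BTG2 (−1.14), ACTA2 (−0.98), IKBIP (−0.88), CENPE (−0.86), PHLDA3 (−0.69), EI24 (−0.62), PLK3 (−0.50) and CBLB (−0.40) were lower too. In all 9 alternative settings 10 of the 25 kept their call, namely ID2, ITPR1, GADD45A, B3GNT2, DAAM1, HIST1H2BG, BTG2, ACTA2, IKBIP and CENPE. Colchicine replicate 1 shared 12 Cq values with replicate 1 of cisplatin, and none of the 25 called genes was among those 12. TNFRSF17 was among them, so its colchicine values given above carry this doubt. Its EtOH values were also shared with the acetonitrile vehicle. Which sample the 12 values were measured in was not tested.

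CDKN1A was lower in antimycin A than in either agent. Its −1.89 and −1.70 in antimycin A stood against −1.11 and −1.07 in tunicamycin and −0.94 and −1.13 in colchicine. The differences were −0.71 (95% CI −1.17 to −0.25, adjusted p = 0.018) against tunicamycin and −0.76 (95% CI −1.22 to −0.30, adjusted p = 0.0073) against colchicine. The antimycin A samples are the same in both contrasts. Without antimycin A replicate 1 the call was lost in both, and it was also lost without either tunicamycin replicate and without colchicine replicate 1. The call against tunicamycin was lost as well when HPRT1 was the sole reference or the panel median took its place. Over these settings the adjusted p was at most 0.149 against tunicamycin and 0.083 against colchicine.

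**Figure D5:**
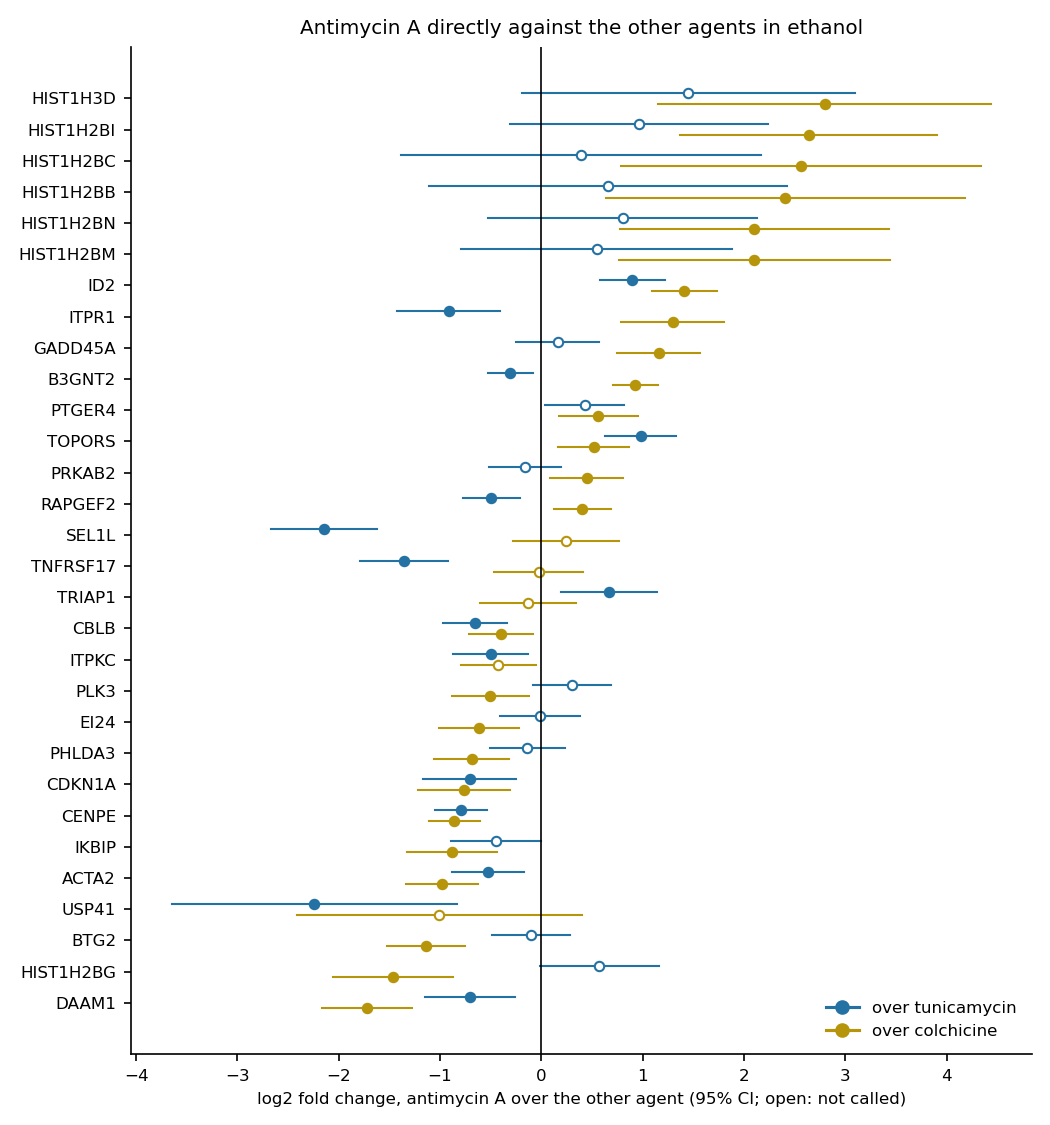
Log2 fold change with 95% confidence interval (x axis) in antimycin A over tunicamycin (blue) and over colchicine (yellow) for the 30 genes called in either contrast (y axis), with filled points where called. SEL1L and TNFRSF17 have called points to the left against tunicamycin, at −2.15 and −1.36, and 6 histone genes have called points to the right against colchicine.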

How the data were processed

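Cq values of 61 panel genes, HPRT1 and GUSB in 76 samples were taken from the deposited table, in which the authors gave 1 value per gene and sample. The authors made cDNA from total RNA and ran TaqMan assays on custom plates. Where a gene had 2 assays they kept 1 by its performance in the biomarker. The authors excluded the panel genes PCDH8, SEMG2 and ARRDC4 because their Cq was too late in most samples. These genes were left out here as well. A second deposited table holds the authors' own fold changes and was not used.

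−ΔCq was computed as the mean Cq of HPRT1 and GUSB minus the gene Cq. A model with 1 coefficient per condition (38 conditions, 38 residual degrees of freedom) was fitted by lmFit and eBayes of limma (version 3.58.1; R 4.3.3). P-values are two-sided and adjusted by Benjamini-Hochberg over 61 genes, and a gene was called under 0.05. Scripts were tested on simulated data. The antimycin A, colchicine and tunicamycin contrasts share the antimycin A samples.

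The agent described here and the gene lists were chosen with earlier results of these data known, while its samples follow from the agent label. Every panel gene was named, with full values for up to 8 called genes in each direction with the largest changes (8 that rose and all 6 that fell), CDKN1A, GADD45A and the energy genes. COIL, the ninth that rose, USP41, SEL1L and the histone genes were added after their values were seen. By gene ID, 61 of 61 genes matched RefSeq (GRCh38.p14) and 51 had a promoter sequence.

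The replicates are labelled biological, and the study ran agents and solvents on 2 occasions. Replicate numbers were therefore taken to pair samples in an alternative fit with a replicate block, while the main model held no such term. The deviations of same-numbered antimycin A and EtOH samples correlated at 0.345 over genes. For antimycin A the correlation was 0.698 with tunicamycin and 0.106 with colchicine. With EtOH it was 0.621 for tunicamycin and 0.570 for colchicine. Alternatives were the reference genes, this replicate block, left-out samples and genes, other vehicles, the samples fitted and the adjustment. Plots used matplotlib 3.10.9 under Python 3.11.15.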

Additional observations from a re-analysis of the deposited data

How the results depend on the processing

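Against the EtOH vehicle 11 of the 15 called genes kept their call in every setting that tested them, and no call changed direction. RAPGEF2, SMAD5, COIL and RPS27L lost theirs in at least 1 setting. Calls numbered 15 (9 higher, 6 lower) and became 25 (15 and 10) with the replicate block, 30 (16 and 14) against 7 other vehicles, 35 (15 and 20) against 6 (H2O also left out) and 31 (7 and 24) with the acetonitrile reference genes, a setting chosen after seeing the data. The 11 genes without shared values gave 3 calls (1 and 2), since fewer genes were tested. With the 8 samples in ethanol 11 genes were lower, and with GUSB alone 8 were higher and 9 lower. Leaving out 1 sample gave 12 to 15 calls, 7 to 10 higher and 5 to 7 lower.

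Against tunicamycin the 15 calls (3 higher, 12 lower) became 7 (2 and 5) with HPRT1 alone, 12 higher and 7 lower with the panel median, which moved the median of all genes to 0.02 against −0.18, 9 higher with the replicate block and 7 higher with the 8 samples in ethanol. Leaving out 1 sample gave 7 to 11 calls, 2 to 3 higher and 5 to 9 lower. Against colchicine leaving out 1 sample turned the 25 calls (14 and 11) into 12 to 23, with 4 to 13 higher and 8 to 11 lower, and the other settings gave 22 to 28 calls. For settings that changed more than the number of genes or samples the cause was not tested. Among the calls that the replicate block added against the EtOH vehicle were CENPE, EI24 and FAM123B, as given above. With 2 samples a condition, the median SD within conditions was 0.203, which limits what small differences can be called.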
